A study of Mus musculus with 4 samples.

Results

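The long genes Auts2, Atrnl1 and Magi2 each held a strong ATF4 site far from both gene ends in mouse cortical neurons, and the same 3 sites were found with and without knock-down of Opa1. Peaks of both lists were taken where the deposited summit lay inside the annotated gene. This gave 3 of 93 control peaks and 4 of 952 Opa1 knock-down peaks, at 3 sites common to both lists and 1 site in Magi2 that was in the knock-down list alone. The 3 genes were chosen by the authors' peak ranks and positions: their peaks ranked 6, 7 and 8 in the control list and lay deep inside genes, so ranks, fold enrichments and depths below are descriptions of chosen sites and were not tested.

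The neurons came from CD1 embryos of stage E14.5-15, were given 2 µM cytosine arabinoside against dividing cells, received lentivirus on day 6 of culture and were harvested on day 11. The library of the control list was labelled WT with a control hairpin (shControl) and that of the knock-down list Opa1 knock-down (shOpa1). Opa1 encodes a GTPase of the inner mitochondrial membrane, and the comparison asks where ATF4 sits on the genome under mitochondrial stress. Each condition had 1 ATF4 chromatin immunoprecipitation (ChIP-seq) library, so no difference between them has a replicate check. The IgG and input libraries, both from control neurons, were not analysed here. The peak lists do not measure expression, so neither the knock-down nor the neuronal identity of the cells was checked.

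ATF4 is a basic leucine zipper transcription factor whose protein is made when the translation factor eIF2 alpha is phosphorylated under stress. It binds DNA paired with other leucine zipper proteins, often of the C/EBP family, at composite elements that join a C/EBP and an ATF sequence, many of them near the starts of amino acid and stress genes. Auts2 encodes a nuclear protein of developing neurons that works with a variant Polycomb complex and the acetyltransferase P300. Atrnl1 encodes attractin-like 1, a membrane protein that can bind the melanocortin-4 receptor. Magi2 encodes a synaptic scaffold with several PDZ domains, also called S-SCAM, that binds neuroligins.

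The DNA under the 3 sites is not shown, as no genome sequence was used here. Promoters are shown instead to set genes whose starts carried no peak beside a gene whose start carried one. They run from 250 bases before to 50 bases after an annotated start and come from RefSeq (GRCm38.p6, with the same chromosome coordinates as mm10), all on the plus strand and 5′ to 3′. Capitals mark the composite element TGATGNAA, or TTNCATCA on the other strand, and the cyclic AMP response element TGACGTCA. Chac1, a glutathione-degrading enzyme and known ATF4 target, is at chr2:119350992-119351291, Atrnl1 at chr19:57610784-57611083 and the upstream start of Magi2 at chr5:19226796-19227095.
Chac1: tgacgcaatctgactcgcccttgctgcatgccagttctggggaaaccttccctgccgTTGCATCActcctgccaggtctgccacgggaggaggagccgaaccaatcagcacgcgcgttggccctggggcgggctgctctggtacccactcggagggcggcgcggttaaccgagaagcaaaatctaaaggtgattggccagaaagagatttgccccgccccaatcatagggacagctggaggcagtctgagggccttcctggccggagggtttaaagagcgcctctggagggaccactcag
Atrnl1: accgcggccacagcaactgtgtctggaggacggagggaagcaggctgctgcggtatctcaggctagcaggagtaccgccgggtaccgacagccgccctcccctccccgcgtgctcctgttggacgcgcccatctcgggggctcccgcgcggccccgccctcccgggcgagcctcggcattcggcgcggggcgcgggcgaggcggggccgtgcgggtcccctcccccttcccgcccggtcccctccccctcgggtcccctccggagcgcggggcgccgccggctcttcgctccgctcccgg
Magi2: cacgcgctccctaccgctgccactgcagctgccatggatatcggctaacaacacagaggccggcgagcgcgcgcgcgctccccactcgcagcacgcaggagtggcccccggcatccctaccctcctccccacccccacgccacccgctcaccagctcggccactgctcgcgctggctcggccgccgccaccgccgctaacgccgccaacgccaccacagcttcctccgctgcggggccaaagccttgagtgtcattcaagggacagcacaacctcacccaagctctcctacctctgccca
The Chac1 window held 1 composite element on the minus strand, beginning 193 bases before the start, and the Atrnl1 and Magi2 windows held none. The windows of the known target genes Ddit3 and Atf5, not shown, held none either, so Chac1 does not stand for target genes in general. The Atrnl1, Magi2 and Chac1 windows held no TGACGTCA. The composite element was in 3.97% of all 32851 promoter windows and TGACGTCA in 1.79%. The Chac1 peak covered 218 of the 300 bases in control neurons and all 300 after knock-down. No peak of either list overlapped the Atrnl1 or Magi2 windows, including a second Magi2 start at chr5:19907268-19907567, which held neither motif. The Ddit3 promoter, fully inside a knock-down peak of fold 34.4, also held neither motif, so a window without a match may still be covered by a peak. The midpoint of that peak lay 297 bp before the start, outside the window, and the sequence there was not searched. GC content was 77.7% at Atrnl1, 69.3% at the upstream Magi2 start and 43.0% at the second, against a median of 52.7% over all windows. The promoter table had no entry for Auts2.

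Auts2 (Gene ID 319974) spans chr5:131437333-132543220 (mm10), or 1106 kb. Its control peak lay at chr5:131876491-131877205 and its knock-down peak at chr5:131876128-131877383. The fold enrichment over the caller's background was 10.7 without and 30.1 with the knock-down. The tag number that the authors give for the peak was 55 (95% Poisson interval 41.4 to 71.6) and 154 (131 to 180). Tags are whole in all 7 peaks described here and were read as counts for the intervals, although in 8 other knock-down peaks they are not whole. The peak ranked 6 of 93 and 4 of 952 in the deposited order, and by fold it took places 12 and 10. It was also among the broadest, placed 3 by width in each list at 715 and 1256 bp. The knock-down peak contained the whole control peak and reached 363 bp further on the low side and 178 bp further on the high side.

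Atrnl1 (Gene ID 226255) spans chr19:57610960-58133343, or 522 kb. Its peaks lay at chr19:57762354-57763004 (control list) and chr19:57762137-57763288 (knock-down list). Fold was 10.04 and 23.9, with 46 tags (95% Poisson interval 33.7 to 61.4) and 141 tags (119 to 166). Ranks were 7 and 5, and the places by width were 5 (651 bp) and 4 (1152 bp). By fold the peak was at place 17 in each list. The midpoints of both peaks differed by 33 bp.

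Magi2 (Gene ID 50791) spans chr5:19219387-20704792, or 1485 kb, the length that places it 16 among 21887 coding genes. Its shared site lay at chr5:19309769-19310279 (control list) and chr5:19309607-19310374 (knock-down list). Fold was 12.3 and 25.2, with 41 tags (95% Poisson interval 29.4 to 55.6) and 104 tags (85.0 to 126). Ranks were 8 and 11, the latter just outside the top 10 of the knock-down list, and places by fold were 8 and 16. The peak was narrower than the other two, at 511 and 768 bp (places 18 and 71 by width). Its tag density was the highest of the 3 sites in both lists, at 80.2 tags per kb of peak for control and 135 for knock-down. Densities at Auts2 were 76.9 and 123, and at Atrnl1 70.7 and 122, so the 3 sites lay close together on this measure.

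The second Magi2 site, at chr5:19945849-19946390, was in the knock-down list alone and was weak. It had a fold of 5.22, 24 tags (95% Poisson interval 15.4 to 35.7) and rank 777 of 952. Of the 872 knock-down peaks with no control partner, 808 had a higher fold, and their medians were a fold of 7.65 and 28 tags. The site lay 636 kb from the shared one, whose knock-down fold was 4.82 times as high. The lowest tag number among control peaks whose length matches their interval was 15, and sequencing depth is unknown, so its lack of a control peak does not show that the site was unbound there.

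**Figure D1:**
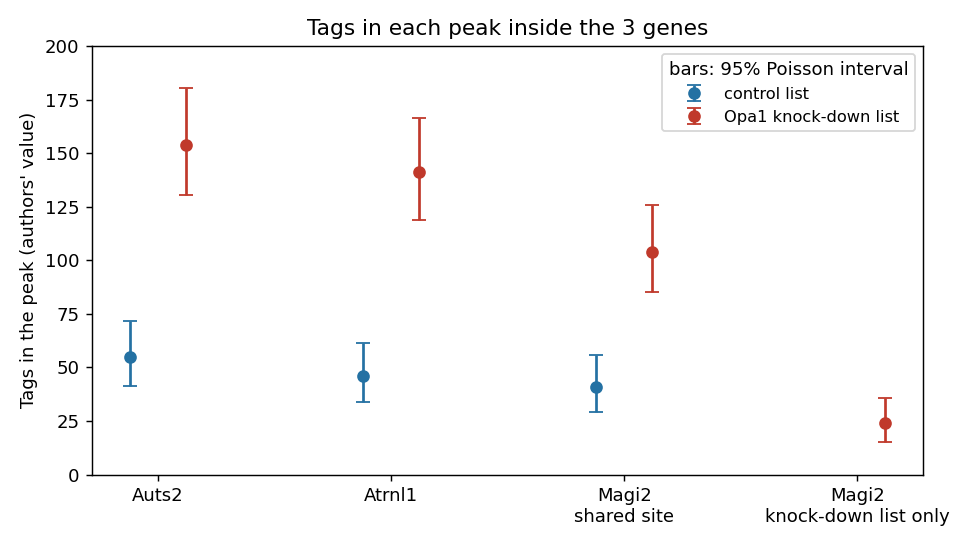
Tags in each of the 7 peaks (y axis, the authors' value), with points for the peak and bars for the 95% Poisson interval, which covers counting error only and is not scaled for depth. The 3 shared sites had 41 to 55 control tags and 104 to 154 knock-down tags, and the second Magi2 site had 24.

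At each of the 3 shared sites the knock-down value was above the control value. The knock-down fold was 2.83 times the control fold at Auts2, 2.38 times at Atrnl1 and 2.05 times at Magi2. These were places 16, 31 and 53 among all 80 shared sites, whose median ratio was 2.26 (range 0.762 to 5.08). A ratio of at least 2 was reached by 3 of 3 sites, and by 70% of all shared sites. By tags the ratios were 2.80 (95% interval from an exact binomial interval of the tags, 2.05 to 3.88), 3.06 (2.18 to 4.37) and 2.54 (1.75 to 3.74). The median over shared sites was 2.75, and 78.8% had at least 2. By fold, Auts2 lay above the upper quartile of the shared sites, 2.63, Atrnl1 near the median and Magi2 below it. By tags, Atrnl1 lay just above the upper quartile of 3.06, Auts2 near the median and Magi2 below it. Per kb of peak the ratios were 1.59, 1.73 and 1.69 (median of all shared sites 1.53), each knock-down peak being 1.5 to 1.77 times as wide. The folds come from separate calls whose settings and control libraries are not given, so these ratios describe how the lists differ and do not measure binding.

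**Figure D2:**
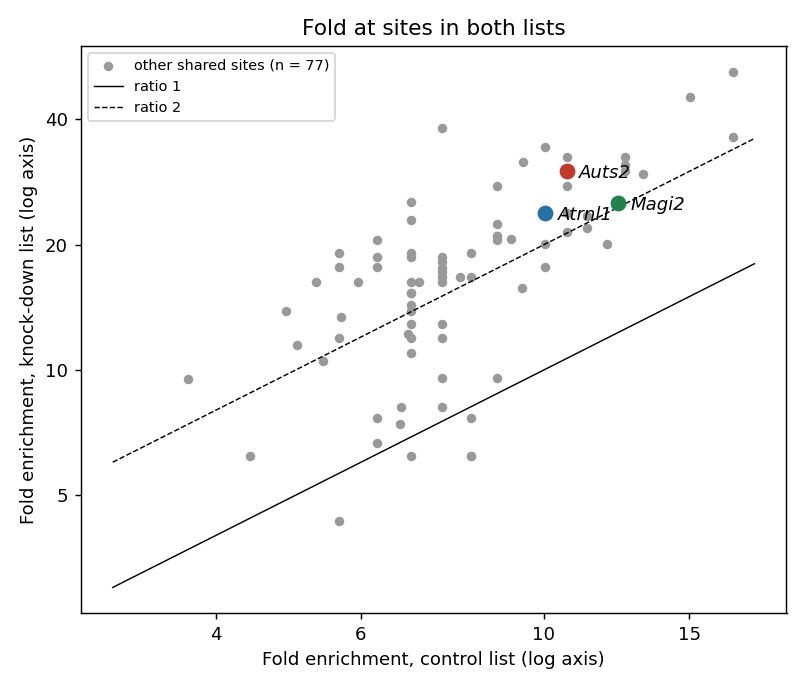
Fold enrichment in the control list (x) against the knock-down list (y), both on log axes, at the 80 sites in both lists, with lines at ratios of 1 and 2. Auts2, Atrnl1 and Magi2 are among the higher folds on both axes and lie at ratios of 2.05 to 2.83.

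All 3 control peaks overlapped a knock-down peak, where 86% of all control peaks did. Every control peak from rank 1 to rank 33 did so, and the overlap is therefore not particular to these sites. Of the 4 knock-down peaks, 3 overlapped a control peak, where 8.4% of all knock-down peaks did. That share follows from the choice of genes with a strong control peak, and nothing is read from it. The control peak was covered fully at each of the 3 sites, and made up 56.9% of the knock-down peak at Auts2, 56.5% at Atrnl1 and 66.5% at Magi2 (median over shared sites 59.0%). The 3 control peaks held 142 of the 2424 tags in all control peaks, or 5.86% (95% Clopper-Pearson interval 4.96 to 6.87). The 4 knock-down peaks held 423 tags, or 1.27% (1.15 to 1.40) of a list with many more peaks.

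Inside their genes the 3 sites took different positions. The Auts2 midpoint lay 440 kb from the lower-coordinate end and 666 kb from the other end, 39.7% along the gene. The Atrnl1 midpoint lay 152 kb downstream of the annotated start, 29.0% along the gene. The shared Magi2 midpoint lay 83.0 kb downstream of the upstream start, 6.10% along the gene, and 597 kb before the second start. The weak Magi2 site lay 38.6 kb downstream of that second start. Both lists lacked a peak within 5 kb of any of the 3 starts of Atrnl1 and Magi2 in the promoter table. The annotated Magi2 gene begins 7.66 kb before the upstream start, at 90.6 kb from the shared midpoint. Exons and introns were not told apart here.

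Other annotated genes lay inside the same long genes. The Auts2 peak was close to a small lncRNA gene, 4930563F08Rik, at chr5:131880269-131883768, a gene of 3.50 kb nested in Auts2. Its near end was 3.06 kb from the edge of the control peak and 2.89 kb from the edge of the knock-down peak. Its start is not in the promoter table, so which of its ends faces the peak is not stated. Atrnl1 held 3 lncRNA genes, the nearest 148 kb from the peak. Magi2 held 4, and the nearest gene to its shared site was the lncRNA gene 4921504A21Rik, 83.5 kb away, which begins beside the upstream Magi2 start.

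**Figure D3:**
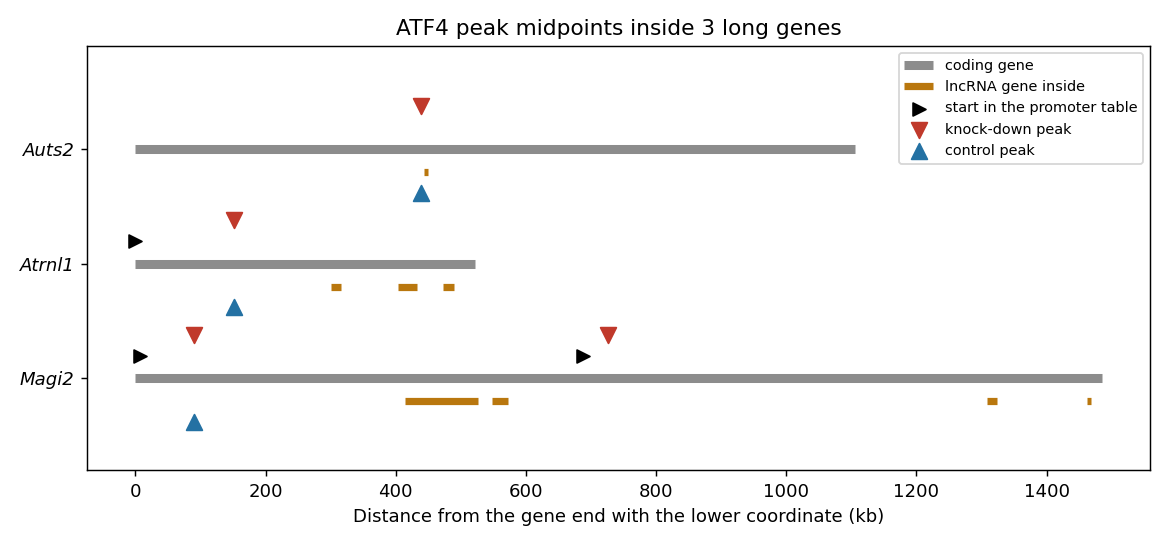
Map of the 3 genes to scale, as distance in kb from the gene end with the lower coordinate, with control peaks (up triangles), knock-down peaks (down triangles), starts in the promoter table (black arrowheads; Auts2 has no entry) and lncRNA genes inside (brown). Control and knock-down markers coincide at 440 kb in Auts2, 152 kb in Atrnl1 and 90.6 kb in Magi2, and Magi2 has a further knock-down marker at 727 kb.

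Distances to the next peak varied around the typical spacing of each list. In the control list the nearest other peak was 4058 kb from the Auts2 site, 34807 kb from the Atrnl1 site and 26566 kb from the Magi2 site, where the median spacing over the list was 11510 kb. In the knock-down list the distances were 2098, 1174 and 636 kb, the last being the second Magi2 site, with a list median of 772 kb. The Auts2 site in the control list and the Magi2 site in the knock-down list were thus closer to another peak than the median.

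Set beside other peaks inside coding genes, the 3 sites combined depth with strength, as they were chosen to. In the control list Auts2 held the deepest of 40 such peaks, measured to the nearer gene end, and Atrnl1 and Magi2 were places 6 and 7. In the knock-down list, which had 477 peaks inside coding genes, the shared sites were places 12, 74 and 114 by depth, and the weak Magi2 site was place 3. The median distance to the nearer end was 6.06 kb for control and 24.7 kb for knock-down peaks. At the 38 shared peaks inside coding genes it was 5.95 kb for control and 5.97 kb for knock-down. With a bound of 80 kb, chosen after the values were seen, 126 knock-down peaks lay deeper than the bound. A fold of at least 20 was reached by 4 of them, or 3.17%, against 3.57% of all knock-down peaks, and nothing is read from this since 3 of the 4 are the chosen sites. The 4 were Auts2, Magi2, Atrnl1 and Nrg3, a neuregulin growth factor gene. Nrg3 had a fold of 20.1 and 76 tags, and the next deep peaks, in Abr (18.6) and Cadm2 (17.2), were just under that fold. With a bound of 100 kb the Magi2 site dropped out and 3 peaks were left.

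**Figure D4:**
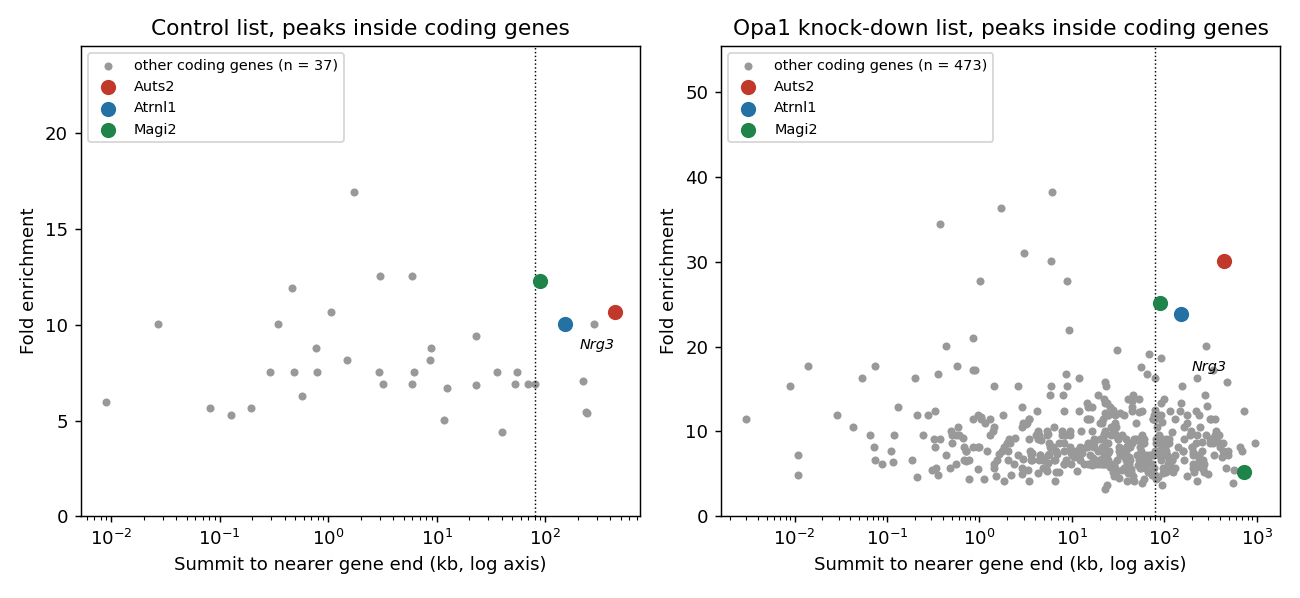
Fold enrichment against summit depth, measured to the nearer gene end (kb, log axis) for every peak inside a coding gene in the control list (left) and the knock-down list (right); the dotted line is at 80 kb. The shared sites of Auts2, Atrnl1 and Magi2 are the highest points to the right of the line in the knock-down list, with Nrg3 next, and the second Magi2 site is near the bottom.

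Other long genes had knock-down peaks of lower fold, or none, which follows in part from choosing the 3 genes for strong, deep peaks. Of 227 coding genes of at least 500 kb, 76 (33.5%) had a knock-down peak, and 7 of these also had a control peak. No others had a control peak. Over all coding genes, 2.65% had a knock-down peak and 0.324% a control peak inside or within 5 kb. These shares make no allowance for gene length. The counts for long genes took only peaks with the summit inside the gene, without the added 5 kb. The other 4 of the 7 were Nrg3 (control fold 10.04, rank 15), Mast4 (5.40, rank 89), Enox1 (5.44, rank 80) and Trpm3 (4.40, rank 93). Their highest knock-down folds were 20.1, 10.5, 5.26 and 6.21. The control and knock-down peaks of Enox1 did not overlap, with summits 236070 and 267146 bp from the nearer gene end, so Enox1 held no shared site. Among the 76, the highest knock-down fold per gene had a median of 8.13 without Auts2, Atrnl1 and Magi2, and 20.1 was the maximum. These long genes held 7.53% of control peaks (95% Clopper-Pearson interval 3.08 to 14.9) and 10.2% of knock-down peaks (8.34 to 12.3). Their share of the genome was not computed, so no preference for long genes is read from these values.

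The relatives and partners of the 3 genes carried almost no peaks. The family members Fbrsl1 and Fbrs (Auts2), Atrn (Atrnl1), and Magi1 and Magi3 (Magi2) had no peak inside or within 5 kb in either list. Magi1 is 608 kb long, but only 33.5% of coding genes of at least 500 kb held a knock-down peak and 3.08% a control peak. None of 6 partners of the Auts2 protein (Pcgf3, Pcgf5, Ring1, Rnf2, Csnk2b and Ep300) had a peak in either list. The same held for 4 genes of the attractin and melanocortin pathway (Mc4r, Mgrn1, Agrp and Asip). Of 11 partners of the Magi2 protein, including Nlgn1, Dlg4 and Grin2b, 1 had peaks. This was Dlg2, a scaffold of the postsynaptic density, with 3 knock-down peaks of fold 12.4, 8.60 and 6.95 at 421 kb or more from a gene end and no control peak. In all 0 of 26 relatives and partners had a control peak and 1 of 26 a knock-down peak, against 0.324% and 2.65% of all coding genes. A share near the background in so short a list is not a result about these genes.

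Of the 10 highest control peaks, 3 lay inside a coding gene and over 5 kb from both its ends, where 23.7% of all control peaks did. They were the sites in Auts2, Atrnl1 and Magi2. In the top 10 of the knock-down list there were 3, in Auts2, Atrnl1 and Slc3a2, an amino acid transporter subunit, the last 6.14 kb from a gene end, where 37.2% of all knock-down peaks lay so deep. The 3 genes were chosen by rank and depth, so nothing is read from these counts. The known target genes had peaks within 2.46 kb of a start. The summit was 282 bp before the Chac1 start for control (fold 15.1) and 242 bp for knock-down (45.4). At Ddit3, which encodes CHOP, it was 267 bp (10.04) and 297 bp (34.4), and at the stress-responsive factor Atf5 2413 bp (12.5) and 2463 bp (31.1). The Ddit3 and Atf5 summits lay inside the neighbouring genes Mbd6 and Nup62, and the Atf5 peak overlapped neither of its promoter windows. In the knock-down list the Auts2 fold of 30.1 was close to that at Atf5, and the Atrnl1 and Magi2 folds were below those of all 3 target genes. In the control list the folds at Auts2, Atrnl1 and Magi2 were below those at Chac1 and Atf5, and at or above that at Ddit3.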

How the data were processed

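ChIP-seq peaks of 2 ATF4 libraries, 1 per condition, were analysed. Chromatin was cross-linked for 30 minutes and sheared to about 150 bp, per the labels' protocols. The build mm10 and MACS2, deepTools and MultiQC are named in the submitters' processing notes. Details not given in the sources used here include the aligner, the control library of the calls, thresholds and depth. For each peak the deposited lists give rank, a p-value score, fold enrichment (a ratio), length, summit and tags, joined in 1 text field by the authors. Starts were read as 1-based because length equals end minus start plus 1 in 84 control and 886 knock-down peaks. In all of these, and in all 7 peaks inside the 3 genes, the deposited summit is within 1 bp of the peak's midpoint, so it does not mark the point of highest signal. Other peaks carry a score on another scale (9 control and 66 knock-down peaks).

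Gene positions and promoters came from RefSeq tables of GRCm38.p6. All 32 genes of the lists matched, Asip by a synonym; some planned list genes are not reported here. Lists shared at least 1 bp at a site. Intervals are at 95% and cover counting error only. Alternatives changed the gene bounds, score, fold, overlap and length minimum. The planned motif search in peaks was replaced by promoters for want of a genome sequence. The counting steps were tested on simulated lists. The named genes were the 3 genes with all their peaks, their families and known partners, coding genes of at least 500 kb with peaks in both lists, top 10 peaks over 5 kb inside a coding gene, and Chac1, Atf5 and Ddit3. Abr, Cadm2 and the motif results at Ddit3 and Atf5 were named after their values were seen. Genes, lists and rules were chosen with earlier results of these data known. Work was done in Python 3.11.15 (tables in pandas 2.3.3, intervals in scipy 1.17.1, plots in matplotlib 3.10.9).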

Additional observations from a re-analysis of the deposited data

How the results depend on the processing

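Peaks inside the 3 genes numbered 3 in the control list under all 5 alternatives. In the knock-down list they numbered 4, or 3 in the higher-scoring part and at a fold of at least 10, which leave out the weak Magi2 site. The 3 shared sites were kept under all 4 alternatives of overlap and list length. The fold ratio at Auts2 (2.83) was 1.59 as tags per kb, because the peak widened. Divided by the median over shared peaks, by construction smaller, the ratios were 1.25 (Auts2), 1.06 (Atrnl1) and 0.906 (Magi2). The share of knock-down peaks in long genes (10.2%) was 16.5% at a minimum of 250 kb and 4.62% at 1000 kb, as more or fewer genes enter. Of 29 alternative values 23 were classed as not moved, a class that lets 4 peaks become 3 and lets a share or ratio move within its 95% interval. Ratios of tags and the bounds of 50 and 100 kb for deep peaks were chosen after the data were seen. No paired analysis was possible because there is a single library on each side. The motif window alternative needed peak sequences and was not run. Read depth was not known.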
